A study of Mus musculus with 8 samples.

Results

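The regions described here are stretches of mouse lens chromatin that were accessible in every tissue and at every stage that was sampled. Accessibility was measured by ATAC-seq, in which the transposase Tn5 inserts sequencing adaptors into open DNA. CD1 mice supplied lens epithelium and lens fiber cells, separated by micro-dissection, at an embryonic stage (E14.5) and just after birth (P0.5), and the labels name no mutation and no treatment in any group. Each of the 4 groups (E14.5 epithelium, E14.5 fiber, P0.5 epithelium and P0.5 fiber) had 2 libraries, and the authors deposited 1 list of MACS2 peaks per group, named as pooled. The regions were chosen by the calls themselves. Peaks of the 4 lists on chromosomes 1 to 19 and X were merged where they lay within 10 bp of each other, and a merged region was kept when it held a peak of every list. This held for 20106 of 185247 merged regions (10.9%), which are called members in the following text. A further 20880 regions held peaks of 3 lists, 34064 held peaks of 2 lists and 110197 held a peak of 1 list. Because the lists are pooled, values per library were not analysed here and no difference could be set against a spread between replicates. Intervals of a share are Wilson 95% intervals and those of a difference are Newcombe 95% intervals, which cover counting error only and take neighbouring regions as independent.

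The lens is built from a front layer of epithelial cells that divide and then, at the equator, leave the cell cycle and elongate into fibers filled with crystallins. Fibers later lose their nuclei and other organelles, which keeps the tissue transparent. Open chromatin that many cell types share usually lies at the promoters of genes every cell needs, often in CpG islands, and at sites of the insulator protein CTCF, whereas enhancers tend to be open in fewer cell types. In the lens, large Maf proteins are known activators of crystallin genes, Tead proteins act with the growth regulator Yap, and ETS proteins include targets of FGF signalling as well as factors that occupy promoters of widely expressed genes.

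Sequence was read from the RefSeq assembly GRCm38 (mm10), and 17 short consensus motifs were searched on both strands in the 200 bp around the strongest summit of each region. A match is a description of letters and not a bound site. The 13 windows printed here were picked after the values had been seen, as members named in the following text that hold the motifs the text turns on. They lie outside annotated exons, capitals mark the match of the motif named and not matches of other motifs, and every window is written 5′ to 3′ on the strand given. The first 7 are promoters of widely expressed genes with matches of ETS (CCGGAAG), Sp and Klf factors (GGGCGGGG), NF-Y (CCAATNAG), YY1 (AANATGGCG) or nuclear respiratory factor 1, NRF1 (GCGCATGCG). The next 3 are promoters of lens genes with a match of Maf factors (TGCTGA, here as its reverse complement). The last 3 lie outside promoters and hold matches of Tead factors (GGAATG or its reverse complement) or of CTCF.
Hjurp, ETS, chr1:88277580-88277677, minus strand: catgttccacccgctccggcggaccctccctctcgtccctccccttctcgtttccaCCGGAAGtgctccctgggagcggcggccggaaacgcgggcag
Cggbp1, ETS, chr16:64851793-64851869, plus strand: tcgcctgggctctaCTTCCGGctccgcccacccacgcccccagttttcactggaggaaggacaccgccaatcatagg
Nmt2, Sp and Klf, chr2:3283855-3283923, plus strand: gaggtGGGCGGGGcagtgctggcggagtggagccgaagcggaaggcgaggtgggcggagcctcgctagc
Mpc2, NF-Y, chr1:165461018-165461108, plus strand: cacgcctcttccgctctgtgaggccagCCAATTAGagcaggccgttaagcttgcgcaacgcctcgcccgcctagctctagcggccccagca
Ccdc174, YY1, chr6:91877927-91878044, plus strand: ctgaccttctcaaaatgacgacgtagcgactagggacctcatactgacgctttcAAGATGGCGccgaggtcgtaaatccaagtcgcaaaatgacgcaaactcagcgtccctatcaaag
Cox6a1, NRF1, chr5:115349055-115349148, minus strand: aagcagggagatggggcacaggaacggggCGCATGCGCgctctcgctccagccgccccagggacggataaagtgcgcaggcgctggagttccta
Ccnb1, NF-Y, chr13:100786503-100786609, minus strand: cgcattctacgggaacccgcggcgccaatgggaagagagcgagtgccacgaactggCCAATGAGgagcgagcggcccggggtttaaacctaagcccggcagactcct
Cryba2, Maf, chr1:74893230-74893323, minus strand: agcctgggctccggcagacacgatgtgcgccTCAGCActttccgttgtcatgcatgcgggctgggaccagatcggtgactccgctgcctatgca
Crybb3, Maf, chr5:113081589-113081692, minus strand: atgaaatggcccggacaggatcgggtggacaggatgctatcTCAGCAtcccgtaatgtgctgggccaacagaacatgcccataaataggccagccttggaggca
Lim2, Maf, chr7:43429921-43430022, plus strand: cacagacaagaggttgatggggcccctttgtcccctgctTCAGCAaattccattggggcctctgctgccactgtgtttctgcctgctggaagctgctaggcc
Asb13, Tead, chr13:3695072-3695191, plus strand: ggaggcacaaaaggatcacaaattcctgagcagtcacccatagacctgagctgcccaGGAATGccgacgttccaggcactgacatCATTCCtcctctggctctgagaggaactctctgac
Rap2b, Tead, chr3:61340410-61340529, plus strand: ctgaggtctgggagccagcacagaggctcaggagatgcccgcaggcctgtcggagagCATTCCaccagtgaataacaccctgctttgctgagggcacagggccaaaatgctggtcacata
Exog, CTCF, chr9:119430457-119430576, plus strand: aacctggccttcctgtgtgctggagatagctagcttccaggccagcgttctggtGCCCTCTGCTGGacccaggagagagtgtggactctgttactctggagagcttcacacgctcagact

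Members were few but wide and strong. They covered 27.1 of the 76.5 Mb under all merged regions (35.5%), with a median width of 1177 bp against 495 bp for regions of 3 lists and 171 bp for regions of 1 list. Width and strength belong to the calls that chose the members and are given as a description. In E14.5 epithelium 25564 peaks lay in members, which was 25.6% of that list on these chromosomes. The corresponding shares were 16.8% in E14.5 fiber, and 43.9% and 42.4% for epithelium and fiber at P0.5. Of the 10% of peaks with the smallest p values, members held 94.2% and 90.2% in epithelium and fiber at E14.5, and 97.4% and 99.5% in epithelium and fiber at P0.5. Most members (58.9%) held exactly 1 peak of each list, and 18729 (93.2%) had a base that peaks of all 4 lists covered.

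The list of P0.5 fiber set the limit for most members. The weakest of the 4 calls was that of P0.5 fiber in 90.8% of members, of P0.5 epithelium in 7.40%, of E14.5 epithelium in 1.05% and of E14.5 fiber in 0.781%. Among the regions of 3 lists, 15589 were missing only in P0.5 fiber, 4482 only in P0.5 epithelium, 461 only in E14.5 epithelium and 348 only in E14.5 fiber. The lists were called at a q value of 0.05, and 1629 members had a q value between 0.01 and 0.05 in P0.5 fiber. Just inside that threshold, the median −log10 q was 18.2 and 19.8 in epithelium and fiber at E14.5, and 8.09 and 1.997 in epithelium and fiber at P0.5. The regions missing only in P0.5 fiber have no q value there, so how near they lie to the threshold is not known, and their medians were 17.0, 14.52 and 7.08 in the other lists. In 16430 members (81.7%) every one of the 4 calls had a q value under 0.001.

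Members lay at promoters far more often than other accessible regions did. A promoter was called where a region overlapped the 2 kb around the transcription start site of a curated RefSeq transcript, and 16.4% of all merged regions met this. Of the members, 12857 (63.9%, interval 63.3 to 64.6) lay at a promoter, 4397 (21.9%) in a gene body, 2335 (11.6%) within 50 kb of a gene body and 517 (2.57%) in intergenic sequence. In regions of 3 lists the promoter share was 15.6%, a difference of 48.4 percentage points (interval 47.6 to 49.2). The promoter share was low whichever list was missing. It was 20.2% in regions missing only in E14.5 epithelium, 14.1% in those missing only in E14.5 fiber, 18.5% in those missing only in P0.5 epithelium and 14.6% in those missing only in P0.5 fiber.

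**Figure D1:**
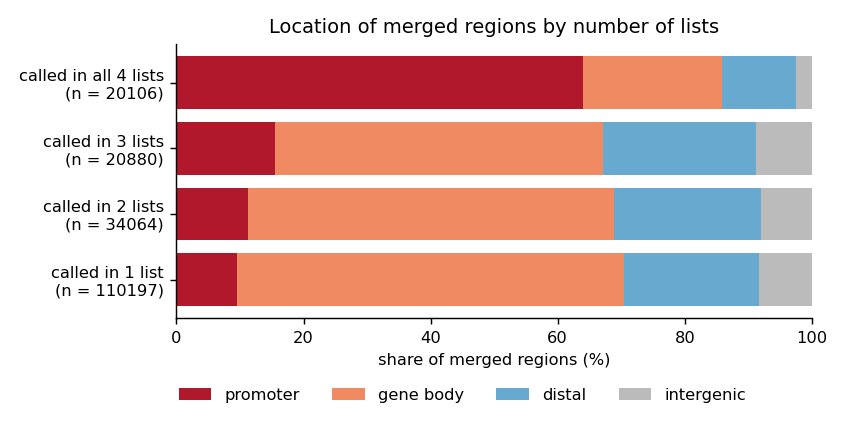
Location of merged regions by the number of lists that called them, as stacked shares in percent of the regions in each bar. The promoter share was 63.9% for regions called in all 4 lists and 15.6%, 11.3% and 9.48% for regions of 3, 2 and 1 lists, while the gene body share was 21.9% for members and 51.5% to 60.9% for the others.

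Strong peaks lie at promoters more often than weak ones, so promoter shares were also described by strength within each list. Each list was cut into 10 bins of equal size by p value, and a region was assigned to the bin of its strongest peak. In the strongest bin of E14.5 epithelium, 86.0% of members and 19.2% of the other regions lay at a promoter. In that of P0.5 fiber, 92.1% of members did so and 3 of the 30 other regions. In the weakest bin, the shares were 22.1% of members and 12.2% of others in E14.5 epithelium, and 27.3% and 9.28% in P0.5 fiber. The interval of the difference lay above 0 in every bin of every list apart from bin 9 of E14.5 fiber, where 61 members gave a difference of 7.19 points (-0.487 to 18.6). The bins come from the calls that chose the members and match strength in 1 list only, so the part of strength in the promoter share was not tested.

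The summits of promoter members sat at the start site. Relative to the nearest start site, the median position of the strongest summit was -25 bp and -15 bp in epithelium and fiber at E14.5, and -14 bp and -1 bp in epithelium and fiber at P0.5, where negative values lie upstream. Within 100 bp of the start site lay 60.6%, 59.3%, 58.6% and 50.2% of summits in the same order. The P0.5 fiber list had the broadest distribution, with its upper quartile at 149 bp downstream against 41 bp in E14.5 epithelium. Over all members, the summits of 2 lists lay a median of 27 bp apart for epithelium and fiber at E14.5, the closest lists, and 65 bp apart for epithelium and fiber at P0.5, the most distant lists. The distances were similar at promoters and elsewhere. In members with 1 peak of each list, the summits of the E14.5 lists were a median of 23 bp apart at promoters and 25 bp apart elsewhere.

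**Figure D2:**
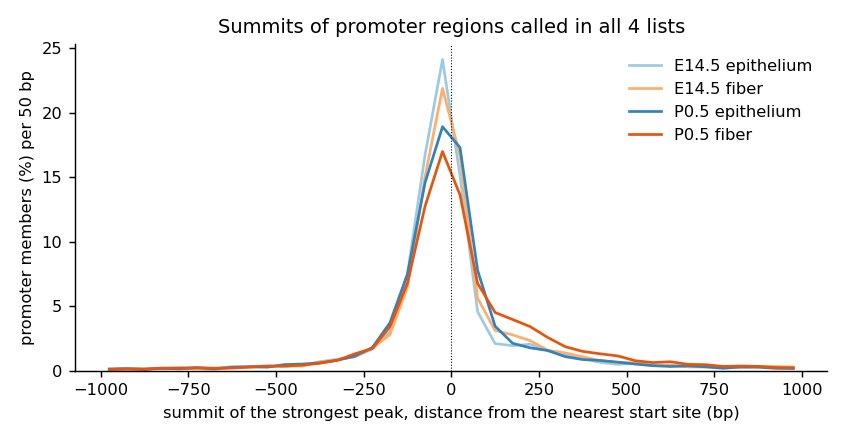
Position of the strongest summit of each promoter member relative to the nearest start site, as the percent of promoter members per 50 bp in each of the 4 lists (lines). All lines peak just upstream of the start site, at medians of -25, -15, -14 and -1 bp, and the P0.5 fiber line has a longer shoulder downstream.

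Promoter members were mostly CpG islands, GC-rich stretches in which CpG dinucleotides have been retained. A region counted as CpG-rich when GC made up at least 50% of the 500 bp around its strongest summit and CpG reached at least 0.6 of the number its base composition predicts. This was true of 39.1% of all promoter regions. Among promoter members, 10504 (81.7%) were CpG-rich, against 7.97% of the other promoter regions, a difference of 73.7 points (72.9 to 74.5). Against promoter regions of 3 lists alone, of which 23.9% were CpG-rich, the difference was 57.8 points (56.1 to 59.4). The median GC content was 64.4% in promoter members and 52.2% in other promoter regions. Outside promoters, 15.9% of members and 0.898% of other regions were CpG-rich.

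Matches of motifs known from promoters of widely expressed genes were more common in promoter members. The Sp and Klf motif was present in 29.2% of promoter members and 3.47% of other promoter regions, beside 14.4% of all promoter regions. The ETS motif, as printed for Hjurp and Cggbp1, was found in 13.9% and 2.43% (7.28% of all promoter regions), a difference of 11.5 points (10.8 to 12.1). Matches of NF-Y, a factor that reads CCAAT boxes, were found in 8.61% and 2.38% (5.01% of all). The YY1 motif was found in 4.20% and 0.302% (1.95% of all), and the NRF1 motif, read by a regulator of mitochondrial genes, in 2.82% and 0.177% (1.29% of all). Other motifs were less common in promoter members than in other promoter regions. The Maf motif was found in 10.8% and 19.7% (15.96% of all), the Tead motif in 6.69% and 12.4% (9.96% of all) and the motif of Gata factors (AGATAA) in 1.56% and 5.997% (4.12% of all). The CTCF motif did not separate these classes, at 1.25% and 1.31%, with an interval of the difference from -0.310 to 0.203 points. Promoter members had more GC than the regions they were compared with, and the part of base composition in these shares was not tested.

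Outside promoters, matches of Sp and Klf factors and of CTCF were more common in members. The Sp and Klf motif was found in 6.98% of non-promoter members and 1.28% of other non-promoter regions (1.54% of all), a difference of 5.70 points (5.14 to 6.32). CpG-rich sequence was more frequent in these members too, at 15.9% against 0.898%, and its part was not tested. The CTCF motif, which is printed for the intron of Exog and was present in 2.54% of all non-promoter regions, was found in 545 of 7249 non-promoter members (7.52%). In the other non-promoter regions it was found in 2.297%, a difference of 5.22 points (4.63 to 5.86). Most of that difference was already present in regions of 3 lists. There the share was 6.25%, which left a difference of 1.27 points (0.578 to 1.99). By location the share was 6.25% (5.58 to 7.01) of members in gene bodies, 9.94% (8.79 to 11.2) of distal members and 7.35% (5.40 to 9.93) of intergenic members. Matches were searched only in the 200 bp around the strongest summit, so their distance from it is small by construction. In the 444 non-promoter members with 1 peak of each list and 1 match, the median distance from match to summit was 29 bp in both E14.5 lists, 32 bp for epithelium and 41 bp for fiber at P0.5. The Tead motif was found in 15.1% of non-promoter members and 14.4% of other regions (interval of the difference -0.182 to 1.504), and the Maf motif in 25.2% and 24.5% (-0.284 to 1.76). Neither interval leaves 0, so a difference was not detectable. Non-promoter members lay a median of 18819 bp from a start site, nearer than the 25164 bp of other non-promoter regions, and 11.5% of them overlapped an exon.

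Of 20923 protein-coding genes, 12571 (60.1%, interval 59.4 to 60.7) had a promoter region among the members. The share was 32.7% (31.2 to 34.3) for genes of long noncoding RNAs, 19.3% for miRNA genes and 52.4% for snoRNA genes, many of which lie inside other genes. Of 938 pairs of protein-coding genes that start within 1 kb of each other in opposite directions, 877 (93.5%) shared their promoters with members. Start sites of a pair lie so close that a member at either promoter counts for both genes, so this share cannot be compared with that of other genes. On the X chromosome, 35.4% of protein-coding genes had a member, the lowest share of any chromosome analysed, and members lay at 2.18 per Mb. The X chromosome also had few accessible regions, and 372 of its 1910 merged regions (19.5%) were members, the highest share of any chromosome analysed.

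Genes of the basic cell machinery were nearly complete, beside a share of 60.1% among all protein-coding genes. All 30 spliceosome genes, all 24 autophagy and lysosome genes and all 17 genes of glucose uptake and glycolysis had a promoter member. So did 75 of 82 ribosomal protein genes (91.5%, interval 83.4 to 95.8), 75 of 82 nuclear genes of the respiratory chain, 38 of 40 genes of RNA polymerase II and its general factors, 50 of 55 translation initiation genes, 34 of 39 proteasome genes and 35 of 37 genes of DNA replication and mitosis. Several of the genes without a member are known tissue-restricted copies. They include Rpl3l and Cox6a2 of muscle, Psma8 of the testis, Psmb11 of the thymus and the immunoproteasome subunit Psmb8, although the immunoproteasome subunits Psmb9 and Psmb10 had a member. Others were general subunits, such as Rps7, Psmb4, Psmb5 and the mitotic kinases Aurkb and Bub1b. Because genes that start head to head share 1 member, these counts are not independent of each other.

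**Figure D3:**
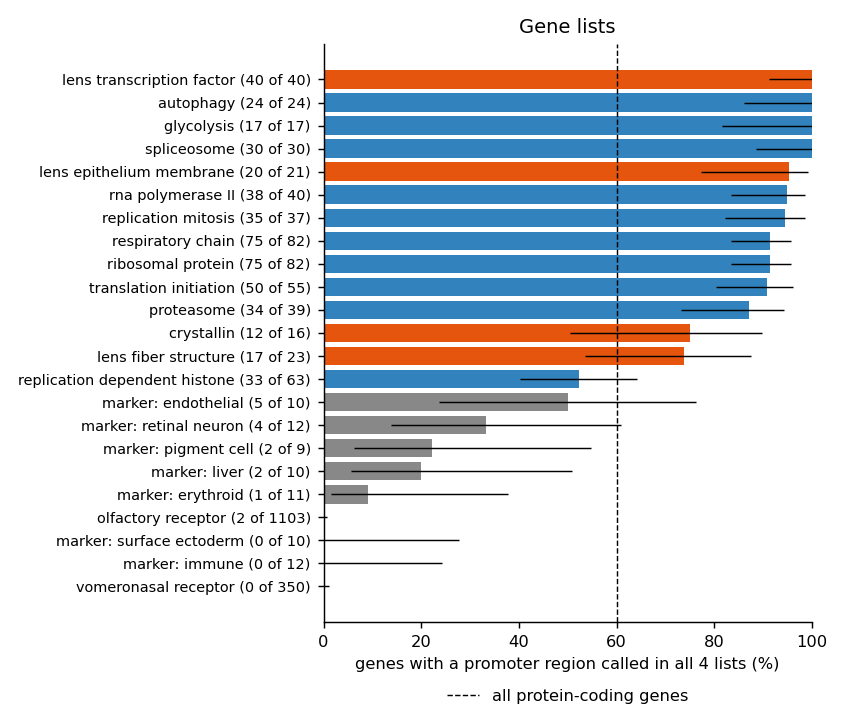
Percent of the genes of each list with a promoter region called in all 4 lists, with Wilson 95% intervals (black lines), for general cell functions (blue), lens genes (orange) and genes that should be silent in the lens or mark other cells (grey, or no visible bar). The dashed line is the share of all protein-coding genes, 60.1%, and the bars run from 100% for lens transcription factors to 0 of 350 vomeronasal receptors.

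The strongest of these promoters were strong in every list. Rank 1 is the highest fold enrichment over local background among the 20106 members of a list. Tied members share the best rank of their tie, which improves ranks where folds are heavily tied, as in P0.5 fiber. The median rank of non-promoter members was 13117 in P0.5 fiber and 14221 to 14676 in the other lists. Levels were compared between lists only by rank because the background differs between lists. Where 4 folds or ranks follow each other, they stand in the order E14.5 epithelium, E14.5 fiber, P0.5 epithelium, P0.5 fiber. Rpl37, a protein of the large ribosomal subunit, had folds of 117 and 118 in epithelium and fiber at E14.5, and 50.9 and 17.1 in epithelium and fiber at P0.5, at ranks 147, 298, 128 and 921. Eno1, the glycolytic enzyme enolase, had folds of 115, 125, 38.2 and 22.2 in the same order, at ranks 167, 180, 630 and 271. Both genes thus stayed among the strongest members in all 4 lists. Mad2l1, a protein of the spindle checkpoint, lay at ranks 787, 1105, 340 and 536. Eif4g2, a translation initiation factor, lay at ranks 223, 77, 739 and 921.

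The motif content of these lists was counted without a test between lists. The ETS motif was found in 13.9% of promoter members. It was present at 17 of 30 spliceosome promoters, 14 of 38 of RNA polymerase II, 24 of 75 of ribosomal proteins and 13 of 34 of the proteasome. The counts were 16 of 50 for translation initiation, 10 of 35 for replication and mitosis and 18 of 75 for the respiratory chain. They were 5 of 24 for autophagy, 2 of 17 for glycolysis and 2 of 33 for replication-dependent histones. Respiratory chain promoters also held the YY1 motif in 15 of 75 cases and the NRF1 motif in 8, beside 4.20% and 2.82% of all promoter members, among them Cox6a1, a subunit of cytochrome c oxidase whose promoter is printed with the other sequences. NF-Y matches, found in 8.61% of promoter members, were also present at 7 of 35 promoters of replication and mitosis, including Ccnb1 (cyclin B1), Cdk1, Ccna2, Plk1 and Top2a.

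Histone genes of the replication-dependent clusters were the exception among general functions. They supply the histones of dividing cells, and 33 of 63 (52.4%, interval 40.3 to 64.2) had a promoter member, beside 60.1% of all protein-coding genes. With peaks at a q value under 0.001 the count was 23 of 63, and that of all protein-coding genes was 11824 of 20923. A promoter peak was present at 56 of them in each E14.5 list, at 53 in the P0.5 epithelium list and at 33 in the P0.5 fiber list, so the P0.5 fiber list was the one that limited the count. The 33 members had median ranks of 6794, 5850, 9470 and 14833 in that order of lists. Of these, 27 ranked better at E14.5 than at P0.5 in both tissues, compared with 26.8% of all promoter members. NF-Y matches were present at 10 of the 33, beside 8.61% of promoter members. Histone genes resemble each other in sequence, and how reads were divided among copies was not tested.

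Transcription factors of the lens were complete. All 40 genes of the list, which ranges from the eye regulator Pax6 to the general insulator protein Ctcf, had a start site inside a member, beside 12082 of 20923 protein-coding genes. The list was chosen with earlier results of these data known, so its full count is a description and carries no test. Etv5, an ETS factor induced by FGF signalling, had the best ranks, at 72, 129, 289 and 427, with folds of 126, 131, 44.6 and 20.4 in E14.5 epithelium, E14.5 fiber, P0.5 epithelium and P0.5 fiber. The region at Pax6, chr2:105666418-105676968, was 10551 bp wide and had folds of 52.1, 107, 22.5 and 10.7, at ranks 3709, 592, 3820 and 3896. These values are those of the strongest peak in a wide region, and they do not describe its other peaks. Foxe3, which maintains the epithelium, had folds of 48.3, 30.5, 20.8 and 8.81 at ranks 4234, 8914, 4539 and 5715, with its lowest rank in E14.5 fiber. Pitx3, a homeobox gene in which mutations cause cataract, had ranks of 818, 646, 4962 and 921, so that P0.5 epithelium stood apart.

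Regulators of differentiation differed in which tissue ranked them better. The promoter region of Prox1, needed for fiber elongation, had folds of 26.8 and 18.1 in epithelium and fiber at E14.5, and 11.9 and 4.63 in epithelium and fiber at P0.5, and ranked lower in fibers at both stages (12442 and 14833) than in epithelium (8690 and 10122). Maf, an activator of crystallin genes, had folds of 46.8, 87.2, 16.1 and 10.7 and ranked better in fibers at both stages, at 1535 against 4487 and at 3896 against 7071. Hsf4, a heat shock factor of maturing fibers, had folds of 9.20, 40.3, 5.94 and 7.42 and had the widest gap of these 3 genes, at ranks 16365 and 16402 in epithelium and 7021 and 7592 in fibers. The Tead4 promoter region ranked better in epithelium, at 4292 against 10405 for E14.5 and at 2452 against 5715 for P0.5. Myc, which drives growth and division, ranked better in epithelium as well, at 5101 against 12223 and 4153 against 8373. Of the 40 promoter members, 17 ranked better in fibers at both stages and 10 in epithelium at both stages, beside 35.6% and 28.6% of all promoter members.

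Crystallins, the structural proteins that fill the fibers, were mostly outside CpG islands. A promoter member was found for 12 of 16 crystallin genes (75%, interval 50.5 to 89.8, which includes the 60.1% of all protein-coding genes), the exceptions being Crybb2, Crygb, Crygf and Crygs. The 12 genes lie in 11 distinct regions, since Cryba4 and Crybb1 share 1. Among these, CpG-rich sequence was found for Cryba2 and for the shared region, where it was read at the summit beside Tpst2, whereas 81.7% of all promoter members were CpG-rich. The widest member of all, chr5:112254280-112286059 with 31780 bp, spanned the start sites of Crybb1 and Tpst2 and reached into the 2 kb around that of Cryba4. Its strongest summit lay 101 bp upstream of Tpst2, a tyrosylprotein sulfotransferase, and 20824 bp from the start of Crybb1, so neither its rank nor its base composition is a value of the crystallin promoters. The member at Cryaa, chr17:31676538-31695274 with 18737 bp, was the next in width, and its strongest summit lay 3127 bp downstream of the Cryaa start. Gamma crystallin genes form a cluster of similar copies, where mapping of reads is less certain than elsewhere.

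Crystallin members ranked better in fibers. Over the 11 distinct regions, 9 ranked better in fibers at both stages, beside 35.6% of all promoter members, and the exceptions were Cryab and the wide region of Cryba4 and Crybb1. Cryga had the widest gap, with folds of 4.60, 86.3, 4.67 and 6.49, at ranks 19458, 1603, 18331 and 9249. It was thus near the bottom of all members in both epithelium lists. Cryaa, alpha A crystallin, had folds of 52.1, 119, 12.7 and 13.0 and ranks of 3709, 282, 9470 and 2361. Cryba2, whose Maf match is printed with the other sequences, had folds of 53.3, 93.4, 14.4 and 13.4 and ranks of 3579, 1170, 8194 and 2137. Cryab, a small heat shock protein that many tissues make, went the other way, with folds of 33.7, 15.4, 18.3 and 6.02 and ranks of 6891, 13474, 5863 and 10411. These ranks come from the peaks that chose the members and carry no test.

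**Figure D4:**
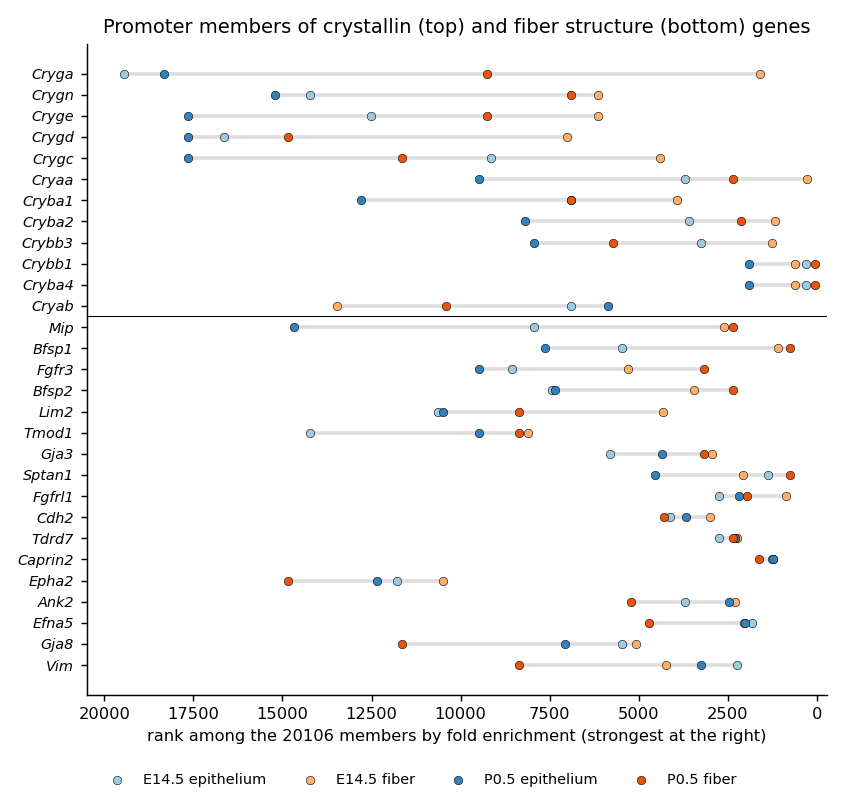
Rank of the promoter member of each crystallin gene (top) and each gene of fiber structure and membrane (bottom) among the 20106 members in each of the 4 lists, with the strongest rank at the right and a grey bar from the lowest to the highest rank. Orange points (fibers) lie to the right of blue points (epithelium) of the same stage for 9 of the 12 crystallin genes, and the bar is longest for Cryga, from 19458 to 1603.

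Genes of fiber structure varied in their order of lists. A promoter member was found for 17 of 23 genes (73.9%, interval 53.5 to 87.5, which includes the 60.1% of all protein-coding genes). Of the 17, 8 (47.1%) ranked better in fibers at both stages and 3 (17.6%) in epithelium at both stages, beside 35.6% and 28.6% of all promoter members. Those without a member included Dnase2b, the nuclease that degrades DNA in fiber nuclei, the Klotho-like gene Lctl and the spectrin gene Sptbn1. Mip, the water channel aquaporin 0, had folds of 29.5 and 73.8 in epithelium and fiber at E14.5, and 7.22 and 13.0 in epithelium and fiber at P0.5, at ranks 7942, 2617, 14676 and 2361. The strongest summit of its region lay 6412 bp from the Mip start, so this rank too may belong to another part of the region. Bfsp1, the beaded filament protein filensin, had ranks of 5457, 1090, 7639 and 753, and its partner Bfsp2 had 7442, 3442, 7353 and 2361. Lim2, a fiber membrane protein with a Maf match in its promoter, had ranks of 10647, 4326, 10481 and 8373. In these genes both fiber lists ranked better than both epithelium lists. Vim, the intermediate filament protein vimentin, had the opposite order, with ranks of 2240, 4230, 3243 and 8373.

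Of 21 epithelium and membrane genes 20 had a promoter member (95.2%, interval 77.3 to 99.2), beside 60.1% of all protein-coding genes, the exception being Nid1, which encodes the basement membrane linker nidogen. They include Col4a1 and Col4a2, collagen chains of the lens capsule, which start head to head and share the member chr8:11311625-11316581 at ranks 9258, 6978, 9130 and 4284. The promoter of Cdh1, the epithelial cadherin, was called in both fiber lists at low fold, with values of 11.1 and 10.97 in epithelium and fiber at E14.5, and 6.79 and 4.17 in epithelium and fiber at P0.5. Its ranks of 15115, 15646, 15207 and 16761 differed little. In this list 7 members ranked better in fibers at both stages and 6 in epithelium at both stages, beside 35.6% and 28.6% of all promoter members.

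Receptor genes of the nose were nearly absent. Members were found at 2 of 1103 olfactory receptor promoters and at 0 of 350 vomeronasal receptor promoters, beside 60.1% of all protein-coding genes. Markers of other cells were checked because dissected tissue can carry them. Members were found at 0 of 12 immune genes, 0 of 10 genes of surface ectoderm, 1 of 11 erythroid genes, 2 of 9 pigment cell genes, 2 of 10 liver genes, 4 of 12 genes of retina and neurons and 5 of 10 endothelial genes. The intervals of the retina and neuron list (13.8% to 60.9%) and of the endothelial list (23.7% to 76.3%) include the share of all protein-coding genes. No globin gene, and neither of the immune markers Ptprc and Csf1r, had a promoter member. The 5 endothelial genes were Cdh5, Kdr, Esam, Flt1 and Erg, and they had low median ranks of 14636, 15646, 13668 and 14833. Of these only 2 had a start site inside the member. Pecam1, Tek, Tie1 and Emcn had none. The part of endothelial cells in these calls was not tested. With promoters narrowed to 500 bp, the erythroid, pigment cell, liver and endothelial counts were 0, 1, 1 and 2.

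Of the 10 members with the best mean rank over the 4 lists, 3 were promoters, behind 7 regions elsewhere. A region of 5879 bp on chromosome 17 (chr17:39842997-39848875), intergenic with Esp38 the nearest gene, had rank 1 in every list. Its folds were 955 and 2739 in epithelium and fiber at E14.5, and 471 and 1437 in epithelium and fiber at P0.5. The region near Axin2, chr11:109011646-109012147, came next at ranks 2, 2, 4 and 2 and was 502 bp wide. A region of 3627 bp near Col19a1 matched mitochondrial DNA. No blacklist was applied here, and the part of sequence present in several copies in these top ranks was not tested. Among promoters, the best mean ranks belonged to Nmt2, an enzyme that attaches myristate to proteins, at ranks 7, 13, 29 and 32, and to Hjurp, the chaperone of the centromeric histone, at 24, 12, 20 and 26. Cggbp1, a protein that binds CGG repeats, followed with folds of 161, 156, 79.0 and 30.1. The promoter list also held Dnpep (an aminopeptidase), Mpc2 (part of the mitochondrial pyruvate carrier), Khsrp (a regulator of RNA splicing and decay) and Pcmtd1. Each of these promoter members ranked among the first 113 in all 4 lists.

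The order of members was similar between lists at promoters and less so elsewhere. Across all 20106 members, Spearman's rho of the fold was 0.92 between epithelium and fiber at E14.5, 0.88 between the stages of epithelium, 0.82 between the stages of fibers and 0.75 between epithelium and fiber at P0.5. Across the 12857 promoter members it ranged from 0.77 to 0.94, and across the 7249 non-promoter members from 0.39 to 0.78. These values describe regions within pooled lists that share mappability and base composition, and regions are not independent replicates. Of the strongest 10% of members, 94.1% to 95.8% lay at promoters in the 4 lists, and of the weakest 10% the share was 25.3% to 31.2%. In all, 942 members were among the strongest 10% of every list, and 96.2% of these lay at promoters.

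Members nevertheless moved in rank between the tissues, and the members that moved most differed in their motifs. The shift of a member was its mean rank in both epithelium lists minus its mean rank in both fiber lists. The 10% of members shifted most toward fibers (2011 members, the fiber-shifted members) had a median shift of 4448.5 ranks, and the 10% shifted most toward epithelium (2010 members, the epithelium-shifted members) had -4541, with the 16085 remaining members between them. The views of motifs by shift were chosen after the values had been seen. They comprised 612 comparisons of shifted members with the middle, over 17 motifs, both tissues and both stages, joint and separate, in all members, at promoters and outside them. Of these intervals 122 lay above 0 and 132 below 0, without adjustment for their number, and the comparisons share members.

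The Maf motif went with fibers. It was present in 16% of all members, in 23.8% of the fiber-shifted members and in 15.1% of the middle, a difference of 8.69 points (6.80 to 10.7). With the ranks of E14.5 alone the difference was 10.8 points, and with those of P0.5 alone it was 6.45 points. Outside promoters, 33.6% of fiber-shifted members held the motif against 24.3% of the middle (9.35 points, 6.22 to 12.6). At promoters the difference was less than that, at 4.07 points (1.97 to 6.42). In the epithelium-shifted members the Maf share was 15.8%, and its interval against the middle included 0.

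The Tead motif went with epithelium. It was present in 9.71% of all members, in 18.3% of the epithelium-shifted members and in 8.83% of the middle, a difference of 9.43 points (7.74 to 11.2). The difference was 11.8 points with the ranks of E14.5 alone and 7.35 points with those of P0.5 alone. Outside promoters, the shares were 27.5% and 13.7% (13.8 points, 10.9 to 16.8), and at promoters they were 9.94% and 6.42% (3.52 points, 1.79 to 5.52). The NF-Y motif was found in 13.4% of epithelium-shifted promoter members, 8.80% of the middle and 1.83% of fiber-shifted promoter members. For epithelium this rested on P0.5, since the difference from the middle was 4.63 points (2.68 to 6.80) with the ranks of P0.5 alone and 1.39 points with those of E14.5 alone, where the interval (-0.482 to 3.56) included 0. Promoters made up 51.8% of the fiber-shifted members, 52.5% of the epithelium-shifted members and 66.9% of the middle, and the shares within promoters and outside them are given for that reason. The CpG-rich shares were 49.5%, 36.5% and 61.7% in the same order, and the part of base composition in the motif shares was not tested. Matches of the motif of Jun and Fos factors (TGANTCA) overlap those of Maf in 106 members, 3.29% of the members with a Maf match.

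**Figure D5:**
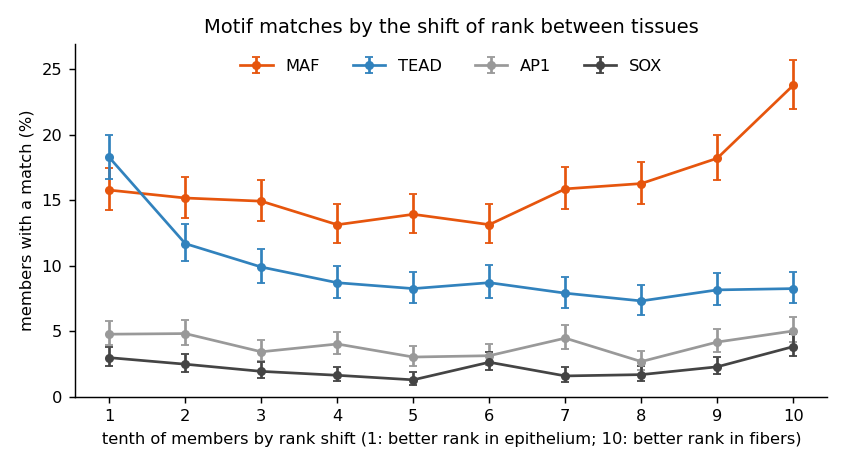
Percent of members with a motif match (points, with Wilson 95% intervals) in 10 equal bins of members ordered by their shift of rank, from better ranked in epithelium (1) to better ranked in fibers (10). The Maf share is 23.8% in bin 10 and between 13.1% and 18.2% in the others, the Tead share is 18.3% in bin 1 and 8.25% in bin 10, and the AP1 (Jun and Fos) and SOX shares reach at most 5.02% and 3.83%.

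Individual members show these shifts. Among the 10 members with the largest shift toward epithelium, 6 held a Tead match and 9 lay outside promoters. The region near Asb13, chr13:3694693-3695411 at 61095 bp from its start, with its 2 printed matches, had folds of 48.3 and 9.79 in epithelium and fiber at E14.5, and 28.9 and 4.17 in epithelium and fiber at P0.5, at ranks 4234, 16323, 1909 and 16761. The region near Rap2b, a small GTPase, lay at ranks 5872, 16502, 1411 and 16761 and held a Maf match as well. Both epithelium lists ranked these regions above both fiber lists. The 1 promoter among the 10 was that of Mcm6, a subunit of the replicative helicase. It had folds of 54.4, 31.7, 28.0 and 3.24 and ranks of 3427, 8624, 2101 and 19745. In P0.5 fiber its call had a −log10 q of 1.33, the lowest value among members in that list. Of the 35 promoter members of replication and mitosis genes, 18 ranked better in epithelium at both stages, compared with 28.6% of all promoter members, and 7 in fibers. The other helicase genes moved less, for example Mcm3 at ranks 1470, 2501, 1008 and 1951.

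Toward fibers, the largest shift was that of Cryga. It was followed by a region of 440 bp far from any gene, with Arhgef26 the nearest, at ranks 15115, 6036, 18331 and 587. The 10 members with the largest shift toward fibers also included distal regions near Rhob, a small GTPase of the actin skeleton, and near Tox2, a nuclear HMG-box protein. None of these 10 held a Maf match, although fiber-shifted members as a whole did so more often than the middle. Lists of general genes went in different directions. Of 50 translation initiation promoters, 30 ranked better in fibers at both stages and 3 in epithelium at both stages, and of 75 ribosomal protein promoters these numbers were 37 and 9, beside 35.6% and 28.6% of all promoter members. The numbers were 18 and 6 of 34 for the proteasome, 21 and 6 of 38 for RNA polymerase II and 29 and 19 of 75 for the respiratory chain. They were 9 and 7 of 30 for the spliceosome and 10 and 8 of 24 for autophagy. For glycolysis they were 2 and 6 of 17, and for replication-dependent histones 5 and 15 of 33.

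Between the stages, ETS matches were more common in the promoters that ranked better at E14.5, and other motifs differed too. The stage shift was formed in the same way, and 25.1% of the 1063 promoter members among the 10% of members shifted most toward E14.5 held the ETS motif, against 13.9% of the middle, a difference of 11.2 points (8.62 to 14.0). Among the promoters shifted most toward P0.5 the share was 4.33%. With the ranks of epithelium alone the difference for E14.5 was 5.29 points (2.95 to 7.83), and with those of fibers alone it was 9.33 points (6.81 to 12.04). Among CpG-rich promoters only, it was 14.6 points. Outside promoters the ETS shares of the E14.5-shifted members and the middle were 2.32% and 2.46%. In the E14.5-shifted promoters the Sp and Klf motif was less frequent, at 19.8% against 30.4% of the middle (-10.6 points, -13.1 to -7.99). The YY1 motif was more frequent there, at 7.06% against 4.31% (2.74 points, 1.29 to 4.48). The Maf motif was also more frequent in E14.5-shifted members outside promoters, with 33.5% against 24.2% of the middle (9.24 points, 6.09 to 12.5).

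Lists of promoters differed in how often they ranked better at E14.5. Of 75 ribosomal protein promoters, 54 ranked better at E14.5 in both tissues, as did 21 of 30 spliceosome promoters and 21 of 34 proteasome promoters, beside 26.8% of all promoter members. Other lists lay closer to that share, with 7 of 24 autophagy promoters (29.2%), 5 of 17 of fiber structure (29.4%) and 6 of 17 of glycolysis (35.3%). Among the 10 members with the largest shift toward E14.5, 1 was a promoter, that of Ccdc174, with folds of 25.3 and 45.7 in epithelium and fiber at E14.5, and 6.79 and 3.71 in epithelium and fiber at P0.5. Its YY1 match is printed with the other sequences. The distal region near Sparc, a matrix glycoprotein of the lens capsule, at chr11:55428081-55428968, had folds of 45.6, 65.5, 10.2 and 3.71 and ranks of 4644, 3472, 11548 and 18478. The intronic region of Exog, a mitochondrial nuclease, had ranks of 10260, 9486, 17661 and 19745. All of these ranked worse in both P0.5 lists than in both E14.5 lists, and the strength of a call in P0.5 fiber was the lowest of the 4 for 90.8% of members in any case.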

How the data were processed

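ATAC-seq libraries of 4 lens groups, with 2 libraries each, were analysed from 4 peak lists. Per the labels and the study's methods, the authors trimmed reads with Trim Galore 0.4.1, mapped them to mm10 with Bowtie2 2.3.3.1, removed mitochondrial and duplicate reads with SAMtools 1.2 and Picard 2.1.1 and ran MACS2 2.1, keeping peaks at a q threshold of 0.05. The methods describe calls per sample, whereas the deposited lists, 1 per group, are named as pooled. For each peak the deposited lists give a score (not used here), the fold enrichment at the summit as a ratio to local background, −log10 p, −log10 q and the summit offset from the peak start, all made by the authors with MACS2. Depth per library is not in the lists, nothing in the labels says that libraries came from separate animals, and no blacklist was applied here. The study's methods give cell numbers that differ between groups, and the part of cell number in the strength of calls was not tested.

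Peaks were merged with bedtools 2.31.1 and placed on 45657 curated RefSeq transcripts of 26089 genes (GRCm38). Regions were classed in the order promoter, gene body, distal and intergenic. Python 3.11.15, pandas 2.3.3, numpy 2.4.6, pysam 0.24.0, matplotlib 3.10.9 and blastn 2.17.0 (matches of at least 100 bp and 80% identity to mitochondrial DNA) were used. A region takes the fold of its strongest peak in each list. Folds of P0.5 fiber are heavily tied. The steps were tested on simulated data. Members, gene lists and motifs were chosen with earlier results of these data known, and the pattern for histone symbols was changed once the annotation was seen to use newer symbols. Named genes were those of the lists, the 10 members with the best mean rank (promoter, other, and repeat or mitochondrial), the 10 widest and, leaving out members over 50% repeat-masked or matching mitochondrial DNA, the 10 with the largest shift in each direction. Alternatives were stricter q values, equal numbers of peaks per list, other merge distances, a shared base, other promoter widths, transcripts and motif windows. Those for the rank shifts were added after the values were seen.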

Additional observations from a re-analysis of the deposited data

How the results depend on the processing

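No paired analysis was possible because the lists are pooled over the 2 libraries of a group and hold no value per library, and for the same reason no library could be left out. The number of members was 20106 and ranged from 16426 (q under 0.001) to 20234 (merge distance of 100 bp), with 18621 at equal numbers of peaks per list and 18729 where a shared base was required. The difference in promoter share from regions of 3 lists ranged from 46.1 to 53.2 points, the difference in CpG-rich share from 68.8 to 73.7 points, the difference in CTCF share from 4.58 to 5.39 points and the number of genes from 11824 to 12571. Every interval stayed above 0 in these settings. The count of histone genes was 33 and fell to 23 at q under 0.001. With promoters narrowed to 500 bp, small counts moved by over 1.5 times, to 0 erythroid, 2 endothelial, 1 pigment cell and 1 liver gene. Over the alternatives chosen after the data were seen, the Maf difference ranged from 4.07 to 10.8 points, the Tead difference from 3.52 to 13.8 points and the ETS difference from 5.29 to 14.6 points, against 8.69, 9.43 and 11.2 points as reported. Their direction held, but their size did not. Ranks and summit distances had no alternative. Faint calls of P0.5 fiber limit which regions count as members, and presence or absence in a list does not measure a difference in accessibility.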

Other observations

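Some members that ranked much better at P0.5 lay in runs. Of the 202 members in the upper 1% of the stage shift, groups of at least 3 within 50 kb were collected, and the 5 groups held 36 of them. In the run at 1600014C10Rik, chr7:38175808-38200288, all 12 members of a 24.5 kb span ranked better at P0.5 in both tissues, with median ranks of 17827 and 17036.5 in epithelium and fiber at E14.5, and 9300 and 1857.5 in epithelium and fiber at P0.5. All 15 members at Mroh2a, chr1:88234836-88268022, did so too, with median ranks of 19215, 19759, 15805 and 8373. At Cd244a, chr1:171531454-171569619, a gene of an immune cell receptor, 14 of 15 members ranked better at P0.5 in both tissues. The runs at Ccl28, chr13:119609503-119617661, and Sfi1, chr11:3184215-3200076, held 6 of 6 and 4 of 4 such members. Runs were collected after the shifts had been seen, and neighbouring members are not independent. The parts of mappability and of copy number in these runs were not tested.

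A few members share sequence with other parts of the genome. The region with rank 1 in every list near Esp38 matched 1 other member, chr6:3201153-3201672 near Gm8579, over 518 bp at 97.7% identity. That member had ranks of 5320 and 15 in epithelium and fiber at E14.5, and 242 and 15 in epithelium and fiber at P0.5. Matches to mitochondrial DNA were found in 9 members and in 9 other regions. Repeat-masked sequence made up more than 50% of 19 members (0.0945%) and of 3.13% of other regions.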
